A study of Homo sapiens with 10 samples.

Results

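PEO1 is an established epithelial line grown from a high grade serous carcinoma of the ovary, and it lacks working BRCA2. ABTr1 is 1 of 4 derivatives of PEO1 that had become resistant to veliparib, an inhibitor of the enzymes PARP1 and PARP2. It had been held in 40 µM veliparib for 6 months and was then grown for 4 to 5 days without the drug before polyadenylated RNA was taken. The parental cells carried the label of an untreated parental genotype, and all cells had the same medium with serum and insulin. The 4 libraries compared here, ABTr1 replicates 1 and 2 and PEO1 replicates 1 and 2, were chosen by name from a series of 10, in which ABTr2, ABTr3 and ABTr4 had the same drug history and also 2 libraries each. ABTr1 is 1 resistant derivative, so its difference from PEO1 holds both what the drug history brought and what this derivative carried by itself, which cannot be told apart. The sample description of ABTr1 gives a clone number other than the one in its library name, and the library name is used here.

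PARP enzymes mark and help repair single-strand breaks in DNA. When they are inhibited, breaks reach the replication fork and are mended by homologous recombination, the pathway of BRCA2, so cells without BRCA2 die under the drug. Resistance is known to come from restored recombination, from lost end protection by 53BP1 and its partners, from stabilised forks or from drug export. Carcinoma cells under long selection can also move between an epithelial state, held by E-cadherin, claudins, keratins and the GRHL, OVOL and ESRP regulators, and a mesenchymal state, held by ZEB1, ZEB2, vimentin and N-cadherin.

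Total counts were 44602090 and 30368855 in PEO1 replicates 1 and 2 and 32653679 and 30285440 in ABTr1 replicates 1 and 2. Levels are given in CPM, a gene's count relative to its library's total after TMM scaling between libraries. Across the 16490 tested genes of the 25370 in the table, Pearson's r of log2 CPM was 0.959 between the PEO1 libraries, 0.972 between the ABTr1 libraries and 0.9 to 0.93 between a PEO1 and an ABTr1 library. These describe libraries only, since genes are not independent replicates. The epithelial markers CDH1, EPCAM, KRT8, KRT18, KRT7 and CLDN4 summed to 8231 and 11642 CPM in PEO1 and to 2403 and 2509 CPM in ABTr1, none at 0. PAX8, the factor that marks serous tumours of Müllerian type, stood at 156 and 92.6 CPM in PEO1 and at 117 and 133 CPM in ABTr1. Other serous markers were lower in ABTr1. WT1 stood at 13.9 and 2.63 CPM in PEO1 and at 0.255 and 0.308 CPM in ABTr1. MUC16 stood at 20.7 and 66.4 CPM in PEO1 and at 1.16 and 0.892 CPM in ABTr1. The groups overlapped for PAX8 and for the remaining serous marker, MSLN. Of 8 fibroblast markers, DCN, LUM, COL3A1 and COL1A2 had 0 reads in all 4 libraries and the list summed to 171 and 90.5 CPM in PEO1 and to 141 and 171 CPM in ABTr1, most of it THY1. Of 7 leukocyte markers, the defining PTPRC had 0 and 4 reads in PEO1 and 0 and 4 in ABTr1, while the list, led by CD68, summed to 41.9 and 54.6 CPM in PEO1 and to 88.9 and 105 CPM in ABTr1. The 5 endothelial markers summed to 15.5 and 62.4 CPM in PEO1 and to 5.54 and 16.3 CPM in ABTr1. Nearly all of the PEO1 sum was CDH5, at 14.6 and 61.6 CPM in PEO1 and 1.05 and 14.1 CPM in ABTr1. VWF, KDR and PECAM1, at most 2.06 CPM in any of the 4 libraries, were higher in both ABTr1 libraries. The 4 mesothelial markers summed to 88.7 and 222 CPM in PEO1 and to 146 and 193 CPM in ABTr1. In bulk RNA, fewer cells of a type and less RNA per cell cannot be told apart.

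In ABTr1 most epithelial, keratin and cholesterol synthesis genes were lower than in PEO1, and ZEB1, ZEB2, vimentin, N-cadherin and the interleukins IL1A and IL1B were higher. A gene was called at an adjusted p under 0.05 in edgeR's quasi-likelihood test. Without the replicate number in the model 1611 of 16490 genes were called (9.77%), 903 higher and 708 lower in ABTr1. With the replicate number as a block, which removes what libraries of the same number share, 4956 were called (30.1%), 2562 higher and 2394 lower. All 1611 genes of the fit without the block were among them with the same sign, and 3345 were called with the block only. The median absolute log2 fold change was 2.22 for the 1611 genes and 1.07 for the 3345, and the median standard error (SE) over all tested genes went from 0.43 to 0.28 with the block. Of the genes called without the block, 619 were at least 4-fold higher and 277 at least 4-fold lower, and 144 and 63 passed 32-fold. In every one of the 1611 both ABTr1 libraries lay on the same side of both PEO1 libraries, which held for 58.3% of all tested genes. Of the 3345 called with the block only, 215 had overlapping groups and rested on the difference within the same-numbered pairs. Counts of calls without the block fell to 221 without ABTr1 replicate 1, 238 without ABTr1 replicate 2, 455 without PEO1 replicate 2 and 1257 without PEO1 replicate 1, a group of 1 library then being assumed to vary like the others. Of the 99 called genes among the 192 named by rule, 33 held in all 11 other settings (20 higher, 13 lower), 62 were lost without ABTr1 replicate 1, 57 without ABTr1 replicate 2, 51 without PEO1 replicate 2 and 23 without PEO1 replicate 1.

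**Figure D1:**
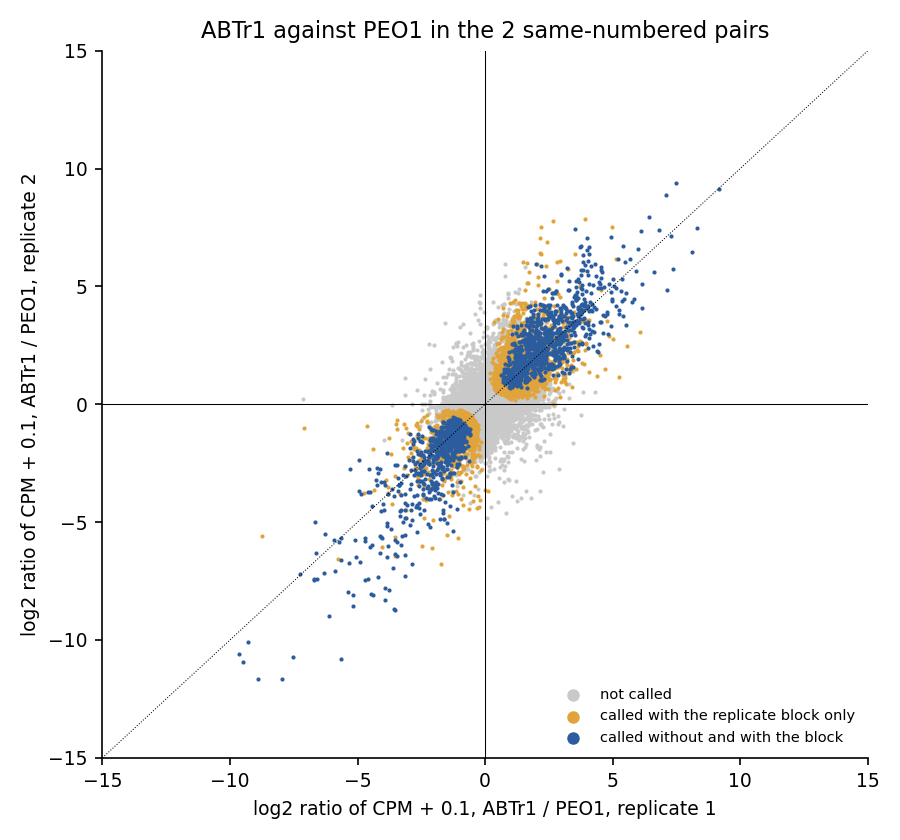
Each point is 1 of 16467 tested genes (23 without a usable symbol are not drawn), placed by its log2 ratio of ABTr1 to PEO1 in replicate 1 (horizontal) and replicate 2 (vertical), with 0.1 CPM added; blue genes were called without and with the replicate block, orange genes with the block only and grey genes in neither. Of the 4956 genes called with the block, including any that are not drawn, 4954 had the same direction in both pairs, as did 75.4% of all tested genes.

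The epithelial list held 30 genes, all tested. Without the block 20 were lower in ABTr1 and none higher, with the block 28 were lower and none higher, and the median log2 fold change was -2.46, beside 0.01 over all tested genes. E-cadherin (CDH1, chromosome 16, 68771195 to 68869444 in hg19), the adhesion protein that defines epithelia, stood at 147 and 358 CPM in PEO1 replicates 1 and 2 and at 9.56 and 1.51 CPM in ABTr1. Both ABTr1 libraries were far below both PEO1 libraries, a fall by 5.51 on the log2 scale (SE 1.11, adjusted p = 0.021). The call of CDH1 was lost without ABTr1 replicate 1, without ABTr1 replicate 2 or without PEO1 replicate 2, with a log2 fold change of -7.38 to -4.72 over the libraries left out. EPCAM, a surface adhesion protein of carcinomas, went from 544 and 543 CPM to 187 and 127 CPM (log2 fold change -1.79, SE 0.26, adjusted p = 0.0083), a partial fall where CDH1 was nearly gone. That call was lost without ABTr1 replicate 2.

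Among the epithelial transcription factors GRHL2 and OVOL1 fell to a few reads, EHF to 39 and 38 reads, and GRHL3, low in all 4 libraries, was called in neither fit. EHF, an ETS factor of simple epithelia (chromosome 11, 34642588 to 34684834), had 182 and 189 CPM in PEO1 and 1.1 and 1.17 CPM in ABTr1, so that the 2 libraries of each group nearly coincided (log2 fold change -7.35, SE 0.54, adjusted p = 0.0015). GRHL2, a grainyhead factor that activates junction genes, had 132 and 110 CPM in PEO1 against 0.113 and 0 CPM in ABTr1 (log2 fold change -10.93, SE 1.09, adjusted p = 0.0041). OVOL1, a zinc finger repressor of ZEB1, had 310 and 249 reads in PEO1 and 2 and 0 in ABTr1, a ratio of 287 (95% exact counting interval 79 to 2373, adjusted p = 0.005). These 3 were called in each of the 11 other settings tried. VGLL1, a partner of TEAD factors and not on the list, fell from 4986 and 3984 reads to 2 and 0 (ratio 4599, interval 1273 to 37985, adjusted p = 0.0015). Counting intervals cover counting error only, and even counts outnumbered odd ones among low counts (55.2% to 58.8% of genes with 1 to 10 counts in a library), so both reads of a pair may have been counted and the intervals are then too narrow. Among list members called with the block only were SPINT1, an inhibitor of surface proteases (120 and 241 CPM in PEO1, 39.3 and 63.6 CPM in ABTr1, adjusted p = 0.089 without and 4.9e-04 with the block), and DSP, the desmosome plaque protein (511 and 488 CPM, then 190 and 102 CPM, adjusted p = 0.056 without and 6.8e-04 with the block). Without ABTr1 replicate 2 only 5 members of the list were called, without PEO1 replicate 2 8 and without ABTr1 replicate 1 10, all lower.

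ZEB factors bind the E2 box, CAGGTG, and 2 promoters from the epithelial list are shown because they hold several copies. They were chosen after their matches were seen. Sequences are from RefSeq (GRCh38.p14), 250 bases before to 50 after the start, on the plus strand for both, with CAGGTG on either strand in capitals (CACCTG is its reverse complement), and no other motif is marked. CRB3 (chr19:6464021-6464320) encodes a protein of the apical polarity complex, and RAB25 (chr1:156060910-156061209) a trafficking GTPase of epithelia.
CRB3: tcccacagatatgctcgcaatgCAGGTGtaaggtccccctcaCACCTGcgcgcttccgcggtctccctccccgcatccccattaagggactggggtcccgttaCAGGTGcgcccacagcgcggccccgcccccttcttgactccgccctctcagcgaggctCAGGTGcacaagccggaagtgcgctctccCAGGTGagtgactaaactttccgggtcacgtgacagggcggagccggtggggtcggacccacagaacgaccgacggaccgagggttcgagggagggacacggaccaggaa
RAB25: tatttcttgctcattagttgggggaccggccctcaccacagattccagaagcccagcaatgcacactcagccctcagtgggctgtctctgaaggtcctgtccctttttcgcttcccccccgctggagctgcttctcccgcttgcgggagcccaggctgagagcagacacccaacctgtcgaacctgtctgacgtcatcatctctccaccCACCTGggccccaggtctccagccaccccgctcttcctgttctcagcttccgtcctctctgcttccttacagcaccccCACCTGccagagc
The CRB3 window holds 5 matches and the RAB25 window 2. CRB3 stood at 12.3 and 21.9 CPM in PEO1 and 1.78 and 0.984 CPM in ABTr1 (adjusted p = 0.043). RAB25 stood at 65.8 and 119 CPM against 11.9 and 1.75 CPM (adjusted p = 0.059 without and 0.011 with the block). A match was held by 7 (41.2%) of the 17 list members that have a RefSeq promoter here, against 20.6% of all 27305 promoters and 18.9% of the 11535 of tested genes. The 7 include GRHL3, which was called in neither fit, while EHF has no match. CDH1, EPCAM and OVOL1 are among the members of the 30 that have no promoter here. The share was 26.2% of 493 for genes called lower without the block, 17.4% of 639 for genes called higher and 13.3% of 15 for the mesenchymal list. With the block it was 21.1% of 1741 for genes called lower and 18.9% of 1796 for genes called higher, closer to the share of tested genes. The E2 box was not the only motif counted. The GRHL motif AACCNGGTT was held by 0% of the 17 list members, against 0.217% of tested genes. The AP-1 motif TGANTCA was held by 11.8% of the 17, against 5.15% of tested genes. A match is a string of letters and was not tested as a binding site.

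Of 14 keratins listed, the intermediate filaments of epithelia, 12 were tested, 8 were lower without the block and 12 with it, and the median log2 fold change was -3.60. KRT18 went from 1691 and 2379 CPM to 337 and 448 CPM (log2 fold change -2.37, SE 0.30, adjusted p = 0.0054). Its partner KRT8 went from 2630 and 3262 CPM to 789 and 882 CPM (log2 fold change -1.82, SE 0.29, adjusted p = 0.011). KRT8 and KRT18 overlap in their exon annotation, so some reads may have been split between them. KRT16, a keratin of stressed epithelia, fell from 6.17 and 4.72 CPM to 0.113 and 0.246 CPM (adjusted p = 0.0098), and KRT80 from 306 and 443 CPM to 122 and 74.8 CPM (adjusted p = 0.017). The simple keratins thus stayed abundant in ABTr1 while KRT16 was close to its detection limit. The keratin count was 0 without ABTr1 replicate 1, 1 without ABTr1 replicate 2, 3 without PEO1 replicate 2 and 10 without PEO1 replicate 1.

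**Figure D2:**
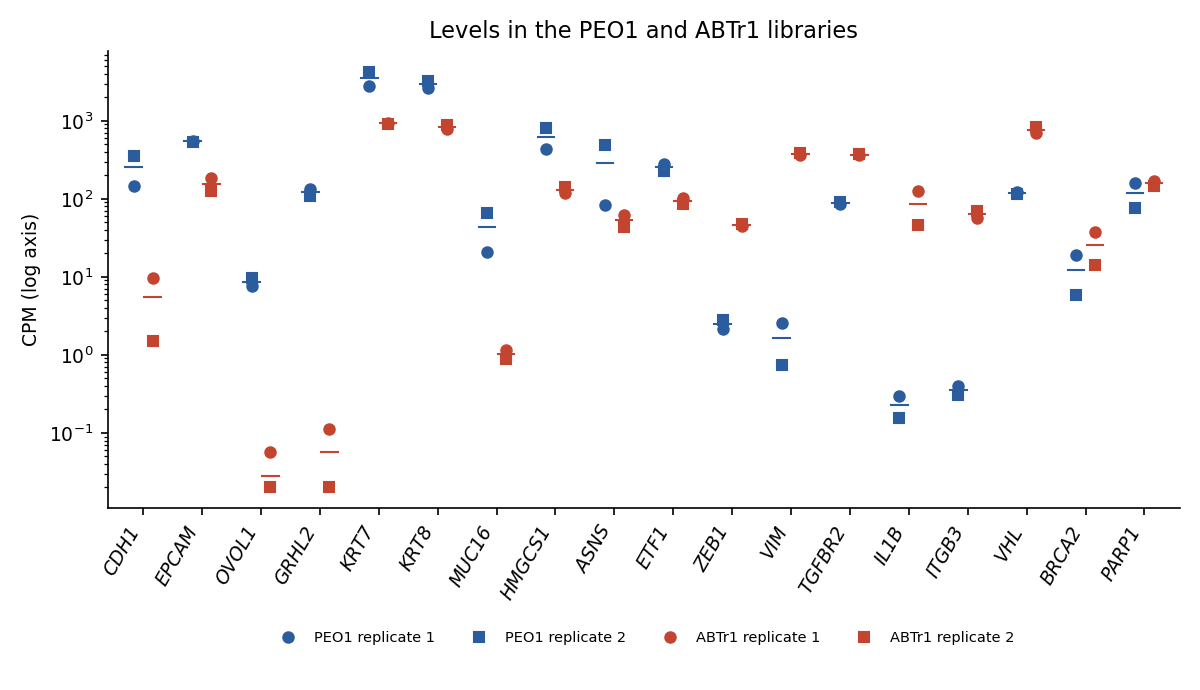
CPM on a log axis of 18 genes in PEO1 (blue) and ABTr1 (red), with circles for replicate 1, squares for replicate 2 and short lines for the mean of the 2 libraries; values under 0.02 CPM are drawn at 0.02. Epithelial genes on the left are lower in both ABTr1 libraries, ZEB1, VIM, TGFBR2, IL1B, ITGB3 and VHL are higher in both, and the BRCA2 and PARP1 values of the groups overlap.

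The mesenchymal list of 27 genes had 9 higher and none lower without the block, 14 higher and none lower with it, and a median log2 fold change of 1.37. ZEB1 (chromosome 10, 31608101 to 31818742), a repressor of E-cadherin, rose from 2.13 and 2.79 CPM to 45.3 and 47.5 CPM. The 2 libraries of each group were close to one another and the groups far apart (log2 fold change 4.24, SE 0.28, adjusted p = 0.0013). Vimentin (VIM, chromosome 10, 17270258 to 17279592), the filament of mesenchymal cells, rose from 2.6 and 0.735 CPM to 370 and 391 CPM (log2 fold change 7.80, SE 0.73, adjusted p = 0.0031). VIM shares exons with its antisense gene VIM-AS1, which went from 0.546 and 0.967 CPM to 15.1 and 11.9 CPM, and without strand their reads cannot be told apart. N-cadherin (CDH2) rose from 6.05 and 11.8 CPM to 88.3 and 112 CPM (log2 fold change 3.50, SE 0.34, adjusted p = 0.0031), and ZEB2, the relative of ZEB1, from 0.694 and 1.39 CPM to 21.8 and 21 CPM (log2 fold change 4.38, SE 0.52, adjusted p = 0.0048). ZEB1, ZEB2, VIM and CDH2 were called in each of the 11 other settings, and 7 members of the list or more were called with any 1 library left out.

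Of the mesenchymal regulators and collagens outside those 4, TWIST2 was called with the block only (8.68 and 5.03 CPM in PEO1, 10.5 and 17.6 CPM in ABTr1, adjusted p = 0.1 without and 0.04 with the block), as was SNAI2 (1.66 and 0.464 CPM, then 5.2 and 1.85 CPM, adjusted p = 0.2 without and 0.049 with it). These 2 were picked after their values were seen. COL6A2, a chain of collagen VI, had 0 reads in both PEO1 libraries and 0.594 and 0.308 CPM in ABTr1, and was called with the block only. The list median was 1.37 also with that gene set at its bound. The remaining 13 of the 27 members were called in neither fit.

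The 15 largest rises among genes of at least 5 CPM were MMP2, EEF1A2, VAT1L, IPCEF1, IL1B, LOC100507065, SLCO2B1, FLI1, VIM, HCLS1, ITGB3, IL13RA2, WSCD1, SPP1 and TLR4. MMP2, a protease that cuts basement membrane collagen, had 1 and 0 reads in PEO1 and 378 and 806 in ABTr1, a ratio of 1155 (counting interval 207 to 45640, adjusted p = 0.0055). EEF1A2, a translation elongation factor made mainly in muscle and nerve, rose from 0.174 and 0.155 CPM to 156 and 142 CPM (log2 fold change 9.78, SE 1.15, adjusted p = 0.0047). VAT1L rose from 0.397 and 0.0774 CPM to 89.1 and 118 CPM (log2 fold change 8.64, SE 0.73, adjusted p = 0.002). ITGB3, the integrin chain that pairs with alpha V, rose from 0.397 and 0.31 CPM to 56.3 and 69.9 CPM (log2 fold change 7.45, SE 0.93, adjusted p = 0.0051). TLR4, the receptor for bacterial lipopolysaccharide, rose from 0.124 and 0.155 CPM to 22 and 12.5 CPM (log2 fold change 6.94, SE 0.66, adjusted p = 0.0031). LOC100507065 overlaps MSRB3 on the other strand, which itself went from 7.34 and 3.75 CPM in PEO1 to 49.1 and 54.9 CPM in ABTr1. Without strand their shared reads cannot be told apart. Of the 15, the calls of SLCO2B1 and IL13RA2 were lost with limma-voom and without any 1 of the 4 libraries, and those of IL1B and SPP1 without PEO1 replicate 2.

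The 15 largest falls were PRSS37, VGLL1, ALDH3B2, SLC22A3, GRHL2, RBBP8NL, MAL, INHBB, IL1R2, CEACAM6, TMPRSS4, OVOL1, IL36RN, PLG and TMPRSS13. SLC22A3, an organic cation transporter, had 66.7 and 417 CPM in PEO1 and 0.17 and 0.0308 CPM in ABTr1 (log2 fold change -11.16, adjusted p = 0.0051). INHBB, the beta B subunit of activin and inhibin, went from 321 and 910 CPM to 0.566 and 0.185 CPM (log2 fold change -10.65, SE 1.11, adjusted p = 0.0035). MAL, a raft protein of apical membranes, went from 314 and 685 CPM to 0.339 and 0.246 CPM (adjusted p = 0.012), a call lost without either ABTr1 library. IL1R2, the decoy receptor that captures interleukin 1, went from 71.2 and 168 CPM to 0.283 and 0 CPM (log2 fold change -9.65, SE 1.08, adjusted p = 0.0041). TMPRSS13, a membrane serine protease, went from 25.9 and 37.5 CPM to 0.17 and 0.123 CPM (log2 fold change -7.72, SE 0.53, adjusted p = 0.0013), while its relative TMPRSS4 fell from 24.8 and 50.1 CPM to 0.255 and 0 CPM (adjusted p = 0.0057). For ALDH3B2, with 416 and 449 reads in PEO1 and 0 in both ABTr1 libraries, the level in ABTr1 was at least 296-fold lower, computed against 3 reads over the 2 libraries. PRSS37 had 44 and 1068 reads in PEO1 and 0 in ABTr1, so the parental libraries themselves differed widely. The calls of PRSS37, CEACAM6 and PLG were each lost without ABTr1 replicate 1, without ABTr1 replicate 2 and without PEO1 replicate 2, where the smallest falls were by 8.41, 4.19 and 4.62 on the log2 scale, and that of RBBP8NL without either ABTr1 library.

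Genes absent from 1 group added to these. Of the genes called higher 66 had 0 reads in both PEO1 libraries and 128 had at most 3, and of those called lower 8 had 0 reads in both ABTr1 libraries and 16 at most 3. LAPTM5, a lysosomal protein of blood cells, had 0 reads in PEO1 and 4.27 and 2.12 CPM in ABTr1, at least 71.5-fold higher (adjusted p = 0.0066).

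The blood cell and endothelial list, which serves as a check for other cells, had 4 of 12 tested members higher and none lower without the block, and 6 higher and 1 lower with it. Shares called were 33.3% and 58.3%, beside 9.77% and 30.1% of all genes. FLI1, an ETS factor of blood and endothelium, had 0 and 2 reads in PEO1 and 154 and 372 in ABTr1 (ratio 256, counting interval 70.6 to 2123, adjusted p = 0.0055). HCLS1, an actin adaptor of blood cells, rose from 0.124 and 0.31 CPM to 34.6 and 57.7 CPM (log2 fold change 7.80, SE 0.61, adjusted p = 0.0015). CD68, a lysosomal protein that other cells also make, rose from 31.2 and 34.1 CPM to 81 and 88.5 CPM (adjusted p = 0.029), a call lost without any 1 library. The defining leukocyte gene PTPRC, at 0 to 4 reads in every library, did not move with them. Of the fibroblast and mesothelial list 2 of 7 tested members were higher and 1 lower without the block. Called were 42.9% without and 57.1% with the block, beside the same shares of all genes. LRRN4 rose from 1.02 and 0.0774 CPM to 17.6 and 8.89 CPM (adjusted p = 0.018), ACTA2, smooth muscle actin, from 1.34 and 2.59 CPM to 9.7 and 15.8 CPM (adjusted p = 0.021), and UPK3B fell from 11.1 and 20.6 CPM to 2.21 and 2.55 CPM (adjusted p = 0.016). The ACTA2 call was lost without any 1 library, that of LRRN4 without either ABTr1 library, and that of UPK3B without either ABTr1 library or PEO1 replicate 2.

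Matrix genes and their receptors changed by single members. Of 24 tested matrix and protease genes 4 were higher and 1 lower without the block, 6 and 2 with it. That made 20.8% and 33.3% called, beside 9.77% and 30.1% of all genes. SPP1, osteopontin, rose from 0.124 and 0.155 CPM to 31.1 and 7.26 CPM (log2 fold change 7.09, SE 1.09, adjusted p = 0.0098), and LAMA4, a laminin chain of vessels and mesenchyme, from 14.2 and 14.5 CPM to 68.7 CPM in both (log2 fold change 2.26, SE 0.24, adjusted p = 0.0041). PLAT, tissue plasminogen activator, rose from 13.4 and 6.23 CPM to 46.8 and 98.2 CPM (adjusted p = 0.043). LAMB3, a laminin chain of epithelial basement membrane, fell from 71.7 and 138 CPM to 35.2 and 23.7 CPM (adjusted p = 0.0476). The counts of this list were 2 higher without either ABTr1 library and 1 higher and 1 lower without PEO1 replicate 2. Of 13 integrins 2 rose and 1 fell without the block, 3 and 2 with it. Shares called were 23.1% and 38.5%, beside 9.77% and 30.1% of all genes. ITGA5, the fibronectin receptor chain, rose from 28.3 and 7.54 CPM to 97.4 and 95.7 CPM (adjusted p = 0.029), a call lost without ABTr1 replicate 1, ABTr1 replicate 2 or PEO1 replicate 2. ITGB6, an integrin of epithelia, fell from 107 and 133 CPM to 9.25 and 1.51 CPM (adjusted p = 0.017), a call lost without ABTr1 replicate 2 or PEO1 replicate 2.

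Of 12 tested genes of the serous ovarian lineage 6 were lower and 1 higher without the block, 7 and 2 with it, with a median of -2.84. KLK6, a kallikrein protease typical of serous carcinoma, fell from 225 and 283 CPM to 30.3 and 27.1 CPM (log2 fold change -3.14, SE 0.29, adjusted p = 0.003). KLK5 fell from 214 and 579 CPM to 7.01 and 5.54 CPM (adjusted p = 0.0093), lost without either ABTr1 library, and KLK8 from 7.19 and 10.3 CPM to 0.368 and 0.369 CPM (adjusted p = 0.026), lost also without PEO1 replicate 2. MUC16, the CA125 antigen, had 20.7 and 66.4 CPM in PEO1 and 1.16 and 0.892 CPM in ABTr1, with an adjusted p of 0.0519 without and 0.0064 with the block. WFDC2, the HE4 antigen, was called with the block only and in the other direction (9.52 and 37.9 CPM in PEO1, 34.1 and 89.8 CPM in ABTr1, adjusted p = 0.52 without and 0.025 with it), its groups overlapping. MECOM, a zinc finger factor often amplified in this tumour, rose from 0.422 and 0.387 CPM to 21.3 and 10 CPM (log2 fold change 5.26, SE 0.62, adjusted p = 0.0047). PAX8 was not called in either fit (log2 fold change 0.01, SE 0.30, adjusted p = 0.98). The lineage list thus held 1 member that rose more than 16-fold, kallikreins that fell together and a PAX8 level within the spread of the libraries. The count of falls in this list was 1 without either ABTr1 library, 3 without PEO1 replicate 2 and 4 without PEO1 replicate 1.

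ESR1, the estrogen receptor, went from 94.2 and 123 CPM to 1.07 and 0.769 CPM (log2 fold change -6.87, SE 0.55, adjusted p = 0.0017), called in each of the 11 other settings. Of the 13 tested estrogen response genes 15.4% were called without and 30.8% with the block, beside 9.77% and 30.1% of all genes. With the block 3 were lower and 1 higher, and without it 2 were lower and none higher. The other was PDZK1, a scaffold protein, at 1.54 and 13.6 CPM in PEO1 and 0.424 and 0.461 CPM in ABTr1 (adjusted p = 0.036). The PDZK1 call was lost without either ABTr1 library or PEO1 replicate 2, and without PEO1 replicate 2 the fall was by 1.82 on the log2 scale. Of 17 receptor kinases 3 rose and 1 fell without the block, 4 and 3 with it. Called were thus 23.5% and 41.2%, beside 9.77% and 30.1% of all genes. FGFR1 rose from 9.32 and 2.9 CPM to 110 and 74.4 CPM (log2 fold change 3.90, SE 0.63, adjusted p = 0.011) and IGF1R from 1.26 and 3.64 CPM to 33 and 30.2 CPM (log2 fold change 3.70, SE 0.57, adjusted p = 0.01), both lost without ABTr1 replicate 1. FGFR2, the epithelial partner of FGFR1 in the family, fell from 64.9 and 65.6 CPM to 3.71 and 6.55 CPM (adjusted p = 0.021), and ERBB3 was lower with the block only (137 and 252 CPM, then 25.6 and 47.1 CPM, adjusted p = 0.065 without and 2.6e-04 with it). PDGFRB stayed low, at 0.124 and 0.155 CPM in PEO1 and 0.933 and 1.48 CPM in ABTr1 (adjusted p = 0.042). Without ABTr1 replicate 1 no receptor kinase was called, and without ABTr1 replicate 2 or PEO1 replicate 2 2 were higher and none lower.

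**Figure D3:**
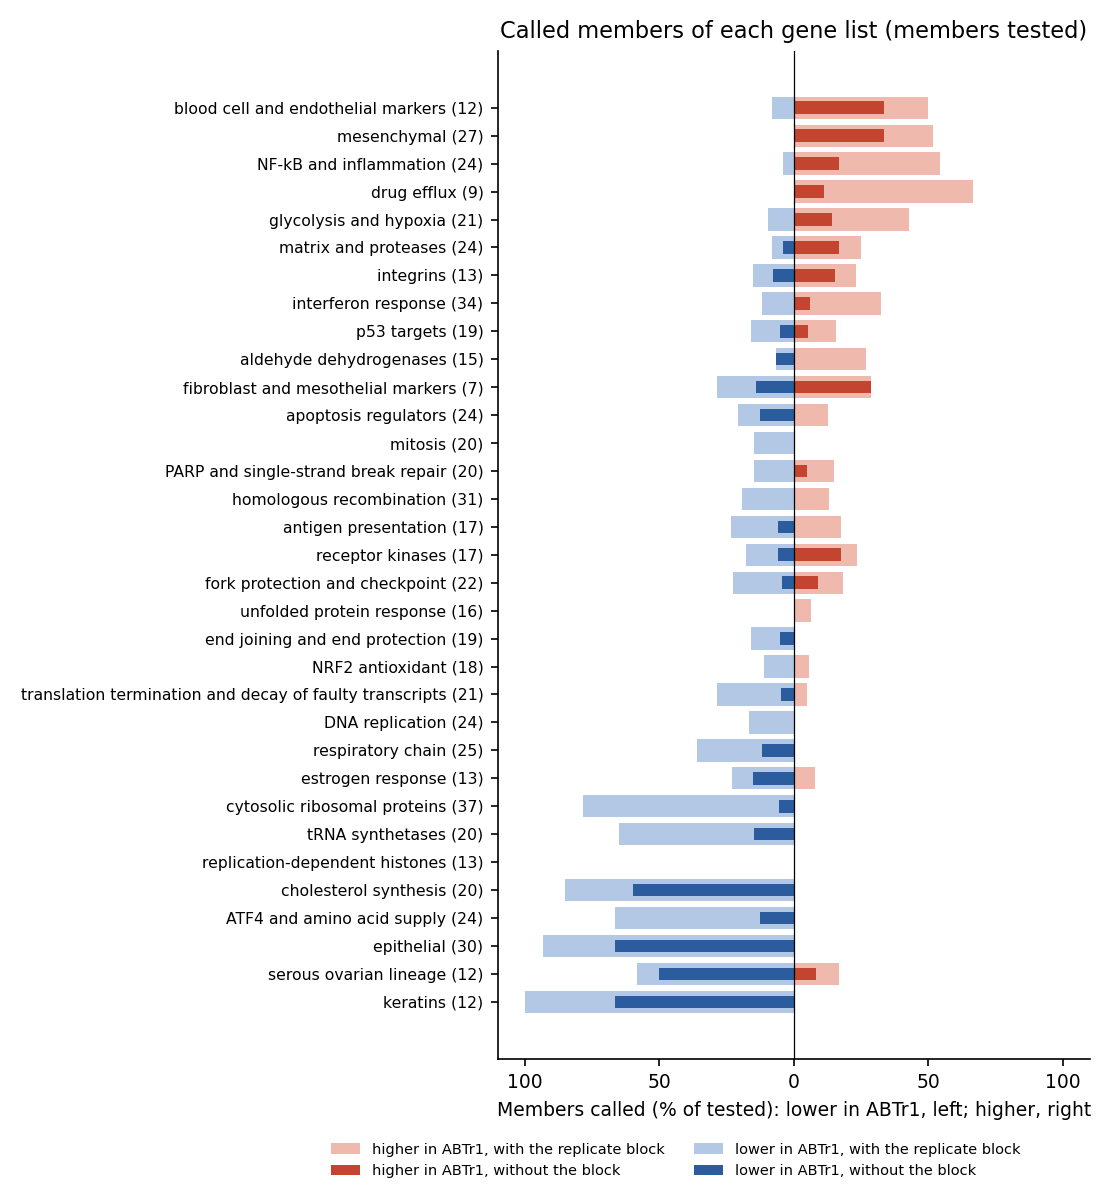
For each of 33 gene lists, ordered by median log2 fold change and with the number of tested members in brackets, bars give the percent of tested members called higher (right, red) and lower (left, blue) in ABTr1; dark narrow bars are the fit without and pale wide bars the fit with the replicate block. The keratin, epithelial and cholesterol lists reach over 50% lower without the block, against 9.77% of all genes called in either direction, and ribosomal, tRNA synthetase and ATF4 lists do so only with it, among others.

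Cholesterol synthesis genes, the targets of the SREBP2 factor, had 12 of 20 tested members lower and none higher without the block, 17 and none with it, and a median of -1.33. HMGCS1, which makes HMG-CoA (chromosome 5, 43287572 to 43313614), went from 433 and 815 CPM to 119 and 142 CPM (log2 fold change -2.26, SE 0.32, adjusted p = 0.0075). CYP51A1, the lanosterol demethylase, fell from 168 and 291 CPM to 47.1 and 63 CPM (adjusted p = 0.01) and MVK, mevalonate kinase, from 24.7 and 28.9 CPM to 6 and 8.74 CPM (adjusted p = 0.017). In all 3 both ABTr1 libraries were well below both PEO1 libraries. The count was 0 without ABTr1 replicate 1, 1 without ABTr1 replicate 2, 3 without PEO1 replicate 2 and 11 without PEO1 replicate 1, and the median stayed negative in all 4, from -1.62 to -0.94.

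Of 24 genes of the ATF4 programme, which supplies amino acids, 3 were lower without the block (12.5% called, beside 9.77% of all genes), 16 with it and none higher, with a median of -1.71. SLC7A5, a large neutral amino acid carrier, went from 998 and 2024 CPM to 285 and 125 CPM (log2 fold change -2.88, SE 0.69, adjusted p = 0.036), its partner chain SLC3A2 from 344 and 721 CPM to 139 and 66.4 CPM (log2 fold change -2.38, SE 0.56, adjusted p = 0.035), and ATF5 from 71.6 and 54.5 CPM to 11.6 and 23 CPM (adjusted p = 0.021). MTHFD2 and PSAT1, enzymes of one-carbon and serine synthesis, were called with the block only (adjusted p = 0.065 and 0.057 without, 0.014 and 0.017 with it), PSAT1 at 262 and 1286 CPM in PEO1 and 175 and 96 CPM in ABTr1. PEO1 replicate 2 was the high library for SLC7A5, SLC3A2, MTHFD2 and PSAT1. Without it no member was called and the median was -0.65, and without PEO1 replicate 1 9 were called with a median of -2.07. No member was called without ABTr1 replicate 1 and 1 without ABTr1 replicate 2. Of 20 tRNA synthetases 3 were lower without and 13 with the block, none higher. Shares called were 15% and 65%, beside 9.77% and 30.1% of all genes. NARS fell from 322 and 464 CPM to 134 and 138 CPM (adjusted p = 0.015), RARS from 164 and 166 CPM to 75.9 and 80.9 CPM (adjusted p = 0.035), and MARS from 217 and 401 CPM to 127 and 112 CPM (adjusted p = 0.043). MARS overlaps DDIT3 on the other strand. ATF5 overlaps NUP62 among others on the other strand, which had 125 and 103 CPM in PEO1 and 89.9 and 82 CPM in ABTr1. The tRNA synthetase count was 5 without PEO1 replicate 1 and 0 without each other library.

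Of 37 cytosolic ribosomal protein genes 2 were called without the block, 29 with it, all lower, and the median was -0.87 without and -0.86 with the block. Shares called were 5.41% and 78.4%, beside 9.77% and 30.1% of all genes. RPS23 went from 1016 and 1496 CPM to 308 and 449 CPM (adjusted p = 0.043) and RPS2 from 2039 and 1909 CPM to 904 and 1082 CPM (adjusted p = 0.0464). RPS14 had 828 and 1121 CPM in PEO1 and 263 and 413 CPM in ABTr1 and was called with the block only (adjusted p = 0.11 without and 0.001 with it). In 28 of the 29 both ABTr1 libraries were below both PEO1 libraries, and in 25 replicate 2 was the higher library in both groups. The groups were apart, in either direction, in 4741 of all 4956 genes called with the block and in 58.3% of all tested genes. Without PEO1 replicate 1 1 member was called, and without each other library none.

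Of 24 inflammatory genes of the NF-kB programme 4 were higher and none lower without the block (16.7% called, beside 9.77% of all genes), 13 higher and 1 lower with it, with a median of 1.15. IL1B, the secreted interleukin 1 beta (chromosome 2, 113587337 to 113594356), rose from 0.298 and 0.155 CPM to 125 and 45.6 CPM (log2 fold change 8.48, SE 1.25, adjusted p = 0.0085). IL1A, the cell-bound interleukin 1, rose from 0.496 and 0.735 CPM to 22.5 and 11.7 CPM (log2 fold change 4.81, SE 0.57, adjusted p = 0.0047). CSF2, the growth factor GM-CSF, rose from 0.0992 and 0 CPM to 3.65 and 3.26 CPM (adjusted p = 0.015) and TNF from 14.7 and 6.93 CPM to 69.1 and 33.4 CPM (log2 fold change 2.24, SE 0.44, adjusted p = 0.018). The one member that fell with the block, LCN2, an iron carrier of epithelia, went from 73.4 and 550 CPM to 1.24 and 5.75 CPM (adjusted p = 0.069 without and 9.3e-05 with it). CXCL2, a chemokine for neutrophils, had 6.84 and 2.75 CPM in PEO1 and 34.6 and 15.3 CPM in ABTr1 (adjusted p = 0.12 without and 0.0011 with it). The interleukin 1 ligands rose, and their decoy receptor IL1R2 and IL36RN, a receptor antagonist of the same family, fell. The count of rises was 1 without PEO1 replicate 2, 2 without ABTr1 replicate 1 and 3 without ABTr1 replicate 2.

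Interferon genes were mixed. Of 34 members 2 were higher and none lower without the block, 11 higher and 4 lower with it. Members called made up 5.88% without and 44.1% with the block, beside 9.77% and 30.1% of all genes. The list had a median of 0.30 that was -0.14 without ABTr1 replicate 2. ISG20, an RNA exonuclease, rose from 4.81 and 5.3 CPM to 14.5 and 16.7 CPM (adjusted p = 0.031) and TREX1, a DNA exonuclease, from 2.48 and 2.98 CPM to 9.02 and 7.2 CPM (adjusted p = 0.027). TREX1 shares exons with ATRIP. With the block GBP2 was higher (2.45 and 23.2 CPM in PEO1, 8.88 and 64.1 CPM in ABTr1, adjusted p = 0.58 without and 0.0011 with it), replicate 2 being the high library in both groups. No member of this list was called with any 1 library left out. Of 17 antigen presentation genes 1 was lower without the block (ERAP1, the peptide trimming protease, 35.1 and 94 CPM to 17.5 and 23.7 CPM, adjusted p = 0.0487), and 3 were higher and 4 lower with it. Called were 5.88% and 41.2% of this list, beside 9.77% and 30.1% of all genes, and its median was -0.24. The ERAP1 call held without PEO1 replicate 1 alone among the libraries left out, its fall being by 0.79 on the log2 scale at the smallest. ERAP1 overlaps CAST on the other strand, which had 457 and 627 CPM in PEO1 and 214 and 229 CPM in ABTr1. HLA-E rose with the block only, from 60 and 96.7 CPM to 127 and 229 CPM (adjusted p = 0.13 without and 0.0011 with it).

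BRCA2 (chromosome 13, 32889617 to 32973809), the gene whose loss makes PEO1 sensitive, stood at 19 and 5.8 CPM in PEO1 and 37.2 and 14.2 CPM in ABTr1. Each ABTr1 library was above the PEO1 library of its number while the groups overlapped, and the log2 fold change was 1.05 (SE 0.92, adjusted p = 0.5) without and 1.13 (SE 0.29, adjusted p = 0.015) with the block. With 1 library left out it ranged from 0.19 to 2.10. Counts per gene do not show whether a transcript encodes a working protein. BRCA1, its upstream partner, had 194 and 117 CPM in PEO1 and 157 and 58.8 CPM in ABTr1 (log2 fold change -0.53, adjusted p = 0.64 without and 0.092 with the block). Of 31 homologous recombination genes none was called by edgeR without the block (6 had an unadjusted p under 0.05, and DESeq2 called 2 higher and 2 lower), and 4 were higher and 6 lower with it (32.3% of the list, beside 30.1% of all genes). Their median was -0.23, and -0.71 to 0.19 with 1 library left out. The 2 members with the smallest adjusted p among these were SFR1 and SWI5, which form a complex that assists strand exchange. SFR1 had 11.4 and 8.36 CPM in PEO1 and 26.3 and 20.2 CPM in ABTr1 (adjusted p = 0.058 without and 0.011 with the block), and SWI5 13.3 and 9.94 CPM against 28.2 and 20.9 CPM (adjusted p = 0.074 without and 0.012 with it).

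End joining and end protection gave 1 lower member of 19 without the block and 3 with it, none higher. Called were thus 5.26% and 15.8% of the list, below the 9.77% and 30.1% of all genes. NHEJ1, a ligation factor, went from 26.3 and 24 CPM to 12.5 and 13.2 CPM (log2 fold change -0.97, SE 0.25, adjusted p = 0.0469), a call held in 3 of 11 other settings. TP53BP1, which encodes 53BP1, had 89.7 and 69.4 CPM in PEO1 and 104 and 125 CPM in ABTr1 (adjusted p = 0.18 without and 0.067 with the block), and MAD2L2, a shieldin subunit, 35 and 23.9 CPM against 40.4 and 42.6 CPM (adjusted p = 0.25 and 0.13). PARP1, the main drug target, had 161 and 76 CPM against 171 and 145 CPM (log2 fold change 0.42, SE 0.50, adjusted p = 0.63 without and 0.14 with the block). PARP2 had 55.6 and 42.5 CPM against 30.7 and 32.1 CPM (adjusted p = 0.17 and 0.055), and PARG, which removes poly(ADP-ribose), 44.8 and 47.5 CPM against 52.5 and 46.2 CPM (adjusted p = 0.84 and 0.77). Of 20 PARP and single-strand break genes 5% were called without and 30% with the block, beside 9.77% and 30.1% of all genes. With the block 3 were higher and 3 lower, and without it 1 was higher. It was APLF, a histone chaperone of end joining, at 3.67 and 3.56 CPM in PEO1 and 12.5 and 12.7 CPM in ABTr1 (log2 fold change 1.80, SE 0.37, adjusted p = 0.022). PARP3 was higher with the block only (14.5 and 19.8 CPM, then 34.1 and 51.2 CPM, adjusted p = 0.14 without and 0.0027 with it). With any 1 library left out no member of the homologous recombination, end joining or PARP lists was called.

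Among 22 fork protection and checkpoint genes 2 were higher and 1 lower without the block, 4 and 5 with it. These are 13.6% and 40.9% of the list, beside 9.77% and 30.1% of all genes. HLTF, a fork remodeller, rose from 160 and 119 CPM to 385 and 285 CPM (log2 fold change 1.26, SE 0.27, adjusted p = 0.027). ETAA1, which switches on the kinase ATR, went from 25.1 and 20.7 CPM to 50.5 and 47.1 CPM (log2 fold change 1.09, SE 0.26, adjusted p = 0.035). RAD1, a subunit of the checkpoint clamp, fell from 86.7 and 78.9 CPM to 45.4 and 36 CPM (adjusted p = 0.0499). SLFN11, which blocks stressed forks and sensitises cells to PARP inhibitors, had 62.6 and 62.8 CPM in PEO1 and 113 and 91.1 CPM in ABTr1 (log2 fold change 0.70, adjusted p = 0.18 without and 0.026 with the block). Of the 3 calls, that of HLTF held without PEO1 replicate 1, and none held without any other library.

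Of 9 drug efflux genes 1 was higher and none lower without the block, 6 and none with it, with a median of 1.10. The share called was 11.1% without and 66.7% with the block, beside 9.77% and 30.1% of all genes. ABCA3, a lipid transporter, rose from 13.7 and 14.5 CPM to 58.9 and 46.6 CPM (log2 fold change 1.90, SE 0.24, adjusted p = 0.0052) and was called in each of the 11 other settings. ABCB1, the P-glycoprotein that exports several PARP inhibitors, had 0.198 and 0.387 CPM in PEO1 and 1.27 and 0.984 CPM in ABTr1 (log2 fold change 1.97, SE 0.65, adjusted p = 0.1 without and 0.045 with the block). ABCG2 had 1.04 and 1.24 CPM against 7.58 and 2.98 CPM (log2 fold change 2.21, SE 0.64, adjusted p = 0.063 without and 0.02 with it). In both pumps the ABTr1 libraries lay above the PEO1 libraries.

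Of 21 genes of translation termination and decay of faulty transcripts 1 was lower without the block, and 6 were lower and 1 higher with it. The shares called were 4.76% and 33.3%, beside 9.77% and 30.1% of all genes. ETF1 (chromosome 5, 137841782 to 137878989), which encodes the release factor that reads stop codons, went from 281 and 225 CPM to 102 and 85.3 CPM (log2 fold change -1.43, SE 0.30, adjusted p = 0.024). With the block the adjusted p was 6.3e-04, and the call was lost without any 1 library. EIF4A3, a subunit of the exon junction complex, was lower with the block only (365 and 281 CPM, then 208 and 171 CPM, adjusted p = 0.13 without and 0.0087 with it).

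Hypoxia and glycolysis genes held 3 higher and none lower of 21 without the block, 9 and 2 with it. The share called was 14.3% without and 52.4% with the block, beside 9.77% and 30.1% of all genes. P4HA1, a collagen prolyl hydroxylase, rose from 17.2 and 20.3 CPM to 79.1 and 80 CPM (adjusted p = 0.012), ENO2, an enolase, from 26.3 and 13.3 CPM to 101 and 67 CPM (adjusted p = 0.012), and BNIP3, a mitophagy receptor, from 92.1 and 71.5 CPM to 232 and 163 CPM (adjusted p = 0.027). GAPDH was lower with the block only, a gene picked after its values were seen (4876 and 4397 CPM, then 2685 and 2559 CPM, adjusted p = 0.092 without and 0.012 with it). The count of rises was 0 without ABTr1 replicate 1 or PEO1 replicate 2 and 1 without ABTr1 replicate 2. Respiratory chain genes were lower in 3 of 25 without and 9 with the block, none higher. Their shares, 12% and 36%, stand beside 9.77% and 30.1% of all genes. ATP5A1, a subunit of ATP synthase, went from 756 and 520 CPM to 191 and 175 CPM (log2 fold change -1.80, SE 0.29, adjusted p = 0.01), a call lost without either ABTr1 library. Of 24 apoptosis regulators 3 were lower and none higher without the block (12.5% called, beside 9.77% of all genes). With the block 5 were lower and 3 higher (33.3% called, beside 30.1% of all genes). BCL2, which blocks cell death, fell from 8.58 and 5.96 CPM to 1.53 and 1.2 CPM (adjusted p = 0.0476), HRK, which promotes it, from 6.25 and 19.3 CPM to 1.87 and 2.83 CPM (adjusted p = 0.0464), and BID, which also promotes it, from 133 and 134 CPM to 63.2 and 69.2 CPM (adjusted p = 0.038). BMF, which also promotes death, was higher with the block only (1.69 and 6.73 CPM in PEO1, 10.7 and 43.9 CPM in ABTr1, adjusted p = 0.16 without and 2.8e-04 with it). Without PEO1 replicate 1 1 member of the list was called, and without each other library none.

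In the p53 target list, 19 members tested, MDM2, the ligase that destroys p53, fell from 119 and 93.7 CPM to 54.7 and 58.5 CPM (adjusted p = 0.036) and XPC, a damage sensor of nucleotide excision repair, rose from 43.5 and 36.5 CPM to 89.4 and 103 CPM (adjusted p = 0.014). With the block 3 were higher and 3 lower. Calls reached 10.5% of the list without and 31.6% with the block, beside 9.77% and 30.1% of all genes. None of 20 mitosis, 24 replication, 18 NRF2, 16 unfolded protein or 13 histone genes was called without the block in edgeR's quasi-likelihood test. Their unadjusted p was under 0.05 for 2, 0, 3, 1 and 2 genes, and DESeq2 called 1 mitosis and 1 NRF2 gene lower, 1 unfolded protein gene higher and no replication or histone gene. With the block 3, 4, 2, 0 and 0 of them were lower and 0, 0, 1, 1 and 0 higher. In the same order the list medians without the block were -0.15, -0.46, -0.35, -0.28 and -1.20. All 13 histone genes and 22 of the 24 replication genes had a negative log2 fold change. With 1 library left out the mitosis median ranged from -0.71 to 0.44 and the replication median from -1.15 to 0.11. MKI67, the proliferation antigen, was lower with the block only (694 and 214 CPM in PEO1, 261 and 133 CPM in ABTr1, adjusted p = 0.42 without and 0.016 with it), with overlapping groups. Of 15 aldehyde dehydrogenases ALDH3B2 was the 1 called without the block, and 4 were higher with it. The list's shares were 6.67% and 33.3%, beside 9.77% and 30.1% of all genes.

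The most abundant called genes were picked by level after their values were seen and included genes of TGF-beta signalling, matrix and translation. TGFBR2, the type II receptor for TGF-beta, rose from 86.1 and 92 CPM to 361 and 379 CPM (log2 fold change 2.05, SE 0.26, adjusted p = 0.005), and SMAD3, its signal carrier, from 254 and 134 CPM to 479 and 532 CPM (adjusted p = 0.041). LOXL2, an enzyme that crosslinks collagen, rose from 20.6 and 11.7 CPM to 475 and 401 CPM (log2 fold change 4.76, SE 0.46, adjusted p = 0.0031). VHL, the ligase subunit that marks hypoxia-inducible factors for destruction, rose from 124 and 115 CPM to 693 and 840 CPM (log2 fold change 2.68, SE 0.50, adjusted p = 0.017). IGFBP5, a binding protein for insulin-like growth factors, fell from 333 and 9277 CPM to 14.8 and 35.2 CPM (log2 fold change -7.58, SE 1.53, adjusted p = 0.021), and its PEO1 libraries differed more than 16-fold. FASN, fatty acid synthase, fell from 1608 and 1449 CPM to 385 and 409 CPM (adjusted p = 0.039), NPM1, a nucleolar chaperone, from 2637 and 2073 CPM to 678 and 625 CPM (adjusted p = 0.0098), and PABPC1, the poly(A) binding protein, from 3594 and 4809 CPM to 981 and 1215 CPM (adjusted p = 0.012).

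The 10 largest rises called with the block only, with at least 5 CPM, included CCL2, UBD, ATOH8, KLHL14, MMP1, TMEM158, CA8, ABCG1 and RARB, and the 10 largest falls S100A9, SLC22A2, LCN2, LINC01133, KRT5, MUC16, C12orf36, FAM198B, RASGEF1B and AGR2. CCL2, a chemokine for monocytes, had 0.248 and 0.155 CPM in PEO1 and 10.7 and 47.4 CPM in ABTr1 (adjusted p = 0.0536 without and 0.0012 with the block). RARB, a retinoic acid receptor, had 0.595 and 4.33 CPM against 19.1 and 50.8 CPM, replicate 2 being higher in both groups (log2 fold change with the block 4.21, SE 0.37, adjusted p = 0.092 without and 1.1e-04 with it). S100A9, a calcium binding protein of squamous cells and neutrophils, had 115 and 161 CPM against 0.17 and 3.23 CPM (adjusted p = 0.081 without and 5.9e-04 with it). KRT5, the basal keratin, had 205 and 8.98 CPM against 1.39 and 4.43 CPM, with opposite order of the replicates (adjusted p = 0.11 and 0.025). In all 20 the ABTr1 libraries lay on 1 side of the PEO1 libraries, as they did in 3130 of the 3345 genes called with the block only.

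Tested genes of some chromosomes were shifted together. The median log2 fold change was -0.52 over 246 genes of chromosome 18, where 55 were called lower and 13 higher without the replicate block, and -0.43 over 778 genes of chromosome 5, with 89 lower and 24 higher. It was 0.30 over 569 genes of the X chromosome (62 higher, 10 lower), 0.29 over 729 genes of chromosome 16 (46 higher, 16 lower), 0.24 over 460 genes of chromosome 20 (46 higher, 13 lower), 0.22 over 554 genes of chromosome 15 (32 higher, 8 lower) and 0.19 over 959 genes of chromosome 3 (74 higher, 16 lower). In windows of 10 Mb with at least 20 tested genes the lowest medians were -1.29 at 70 to 80 Mb and -1.05 at 40 to 50 Mb of chromosome 18, and on chromosome 5 the windows from 60 to 90 Mb and from 110 to 140 Mb had medians of -0.96 to -0.75. The highest were 0.81 at 100 to 110 Mb of chromosome 13, 0.65 at 100 to 110 Mb of the X chromosome and 0.64 at 80 to 90 Mb of chromosome 16. Both same-numbered pairs gave the same sign in each of these windows. Windows were chosen after the data were seen and DNA copy number was not measured. Of the falls named above, HMGCS1, ETF1, RPS23, RPS14, RARS, RAD1, ERAP1 and NPM1 lie on chromosome 5 and ATP5A1, NARS and BCL2 on chromosome 18. Of the rises, HCLS1, MECOM, HLTF, XPC, TREX1, TGFBR2, VHL, PARP3, TMEM158 and RARB lie on chromosome 3, MMP2, VAT1L and ABCA3 on chromosome 16, EEF1A2, LRRN4 and WFDC2 on chromosome 20, IGF1R, ISG20, SMAD3 and BMF on chromosome 15 and IL13RA2 on the X chromosome. Other named genes went against the shift of their chromosome, such as CDH2 on chromosome 18, CSF2 and PDGFRB on chromosome 5, CDH1 and SLC7A5 on chromosome 16 and VGLL1 on the X chromosome. Windows differed within a chromosome. The median was -0.03 at 40 to 50 Mb of chromosome 5, where HMGCS1 lies, and 0.02 at 170 to 180 Mb, where NPM1 lies. ETF1 lies at 130 to 140 Mb of chromosome 5, with a median of -0.76. On chromosome 16 it was 0.00 at 50 to 60 Mb, where MMP2 lies, and 0.31 at 70 to 80 Mb, where VAT1L lies. The part of the chromosome shifts in the values of single genes was not tested.

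**Figure D4:**
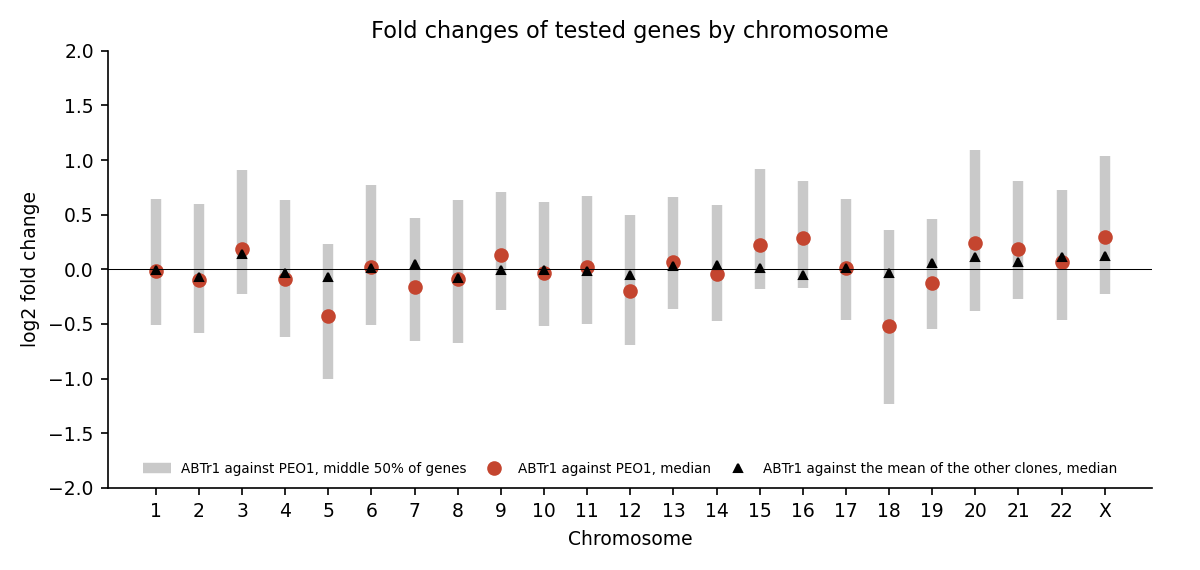
Red points give the median log2 fold change of ABTr1 against PEO1 over the tested genes of each chromosome, grey bars the range of the middle 50% of genes, and black triangles the median of ABTr1 against the mean of the other 3 resistant derivatives. Chromosomes 18 (-0.52) and 5 (-0.43) are the lowest red points, while the black triangles of all chromosomes lie within 0.14 of 0.

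Where ABTr1 differed from the other resistant derivatives was asked without the parental libraries, against the mean of ABTr2, ABTr3 and ABTr4. Without the block 2 of 16490 genes were called (0.0121%), both higher in ABTr1, and 1363 had an unadjusted p under 0.05. With the block 489 were called (2.97%), 375 higher and 114 lower, and DESeq2 called 184. IPCEF1, a protein that binds the cytohesin exchange factors (chromosome 6, 154475618 to 154677900), had 62.1 and 15.5 CPM in ABTr1 and 0.129 to 0.402 CPM in the 6 libraries of the other derivatives (log2 difference 7.46, SE 0.50, adjusted p = 0.0031), beside 0.124 and 0.0774 CPM in PEO1. IPCEF1 shares exons with OPRM1 on the other strand, which had 1.13 and 0.769 CPM in ABTr1. SESN3, a sestrin that restrains the mTORC1 kinase (chromosome 11, 94898677 to 94965705), had 16.7 and 28.6 CPM in ABTr1 and 1.49 to 5.73 CPM in the others (log2 difference 3.01, SE 0.28, adjusted p = 0.019), beside 0.422 and 0.619 CPM in PEO1. Without either ABTr1 library 1 gene was called.

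With the block, 10 of the 30 epithelial genes were higher in ABTr1 than in the mean of the other derivatives and none lower. CDH1, at 9.56 and 1.51 CPM in ABTr1, had 0.043 to 1.69 CPM in the 6 other libraries, so that 1 of these, ABTr2 replicate 2, lay above ABTr1 replicate 2 (log2 difference 3.55, SE 0.73, adjusted p = 0.039 with and 0.34 without the block). PRSS8, a membrane protease of epithelia picked after its values were seen, had 17.2 and 8.86 CPM in ABTr1 and 0.65 to 3.48 CPM in the others (log2 difference 3.28, SE 0.39, adjusted p = 0.01 with and 0.29 without the block). VIM was also higher, at 370 and 391 CPM against 37.9 to 97.3 CPM (log2 difference 2.52, SE 0.33, adjusted p = 0.013 with and 0.29 without it). CA9, a carbonic anhydrase induced by hypoxia, had 36.4 and 10.4 CPM against 0.532 to 8.36 CPM (log2 difference 3.45, SE 0.54, adjusted p = 0.02 with and 0.29 without it). Of 21 hypoxia and glycolysis genes 4 were higher and none lower, of 9 drug efflux genes 3 and none, and of 34 interferon genes 4 and none. These compare ABTr1 with a mean, not with each derivative. The efflux gene ABCB1 was called (adjusted p = 0.0459 with and 0.34 without the block) at 1.27 and 0.984 CPM in ABTr1. It had 1.73 and 1.16 CPM in ABTr2, 0.996 and 0.473 CPM in ABTr3 and 0 CPM in both ABTr4 libraries.

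Lower in ABTr1 than in the other derivatives, with the block, were 6 of 20 cholesterol genes and 2 of 24 NF-kB genes, none of either list being higher. HMGCS1 had 119 and 142 CPM in ABTr1 and 174 to 345 CPM in the others (log2 difference -1.03, SE 0.20, adjusted p = 0.036 with and 0.43 without the block). INSIG1, the sterol sensor partner of SREBP, picked after its values were seen, had 26.4 and 58 CPM against 64.3 to 135 CPM (log2 difference -1.26, SE 0.20, adjusted p = 0.021 with and 0.51 without it). CXCL8, interleukin 8, had 151 and 72 CPM against 156 to 847 CPM (log2 difference -2.04, SE 0.38, adjusted p = 0.033 with and 0.51 without it), while in PEO1 it had 57 and 17.4 CPM. All 6 libraries of the other derivatives were above both ABTr1 libraries for each of HMGCS1, INSIG1 and CXCL8.

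**Figure D5:**
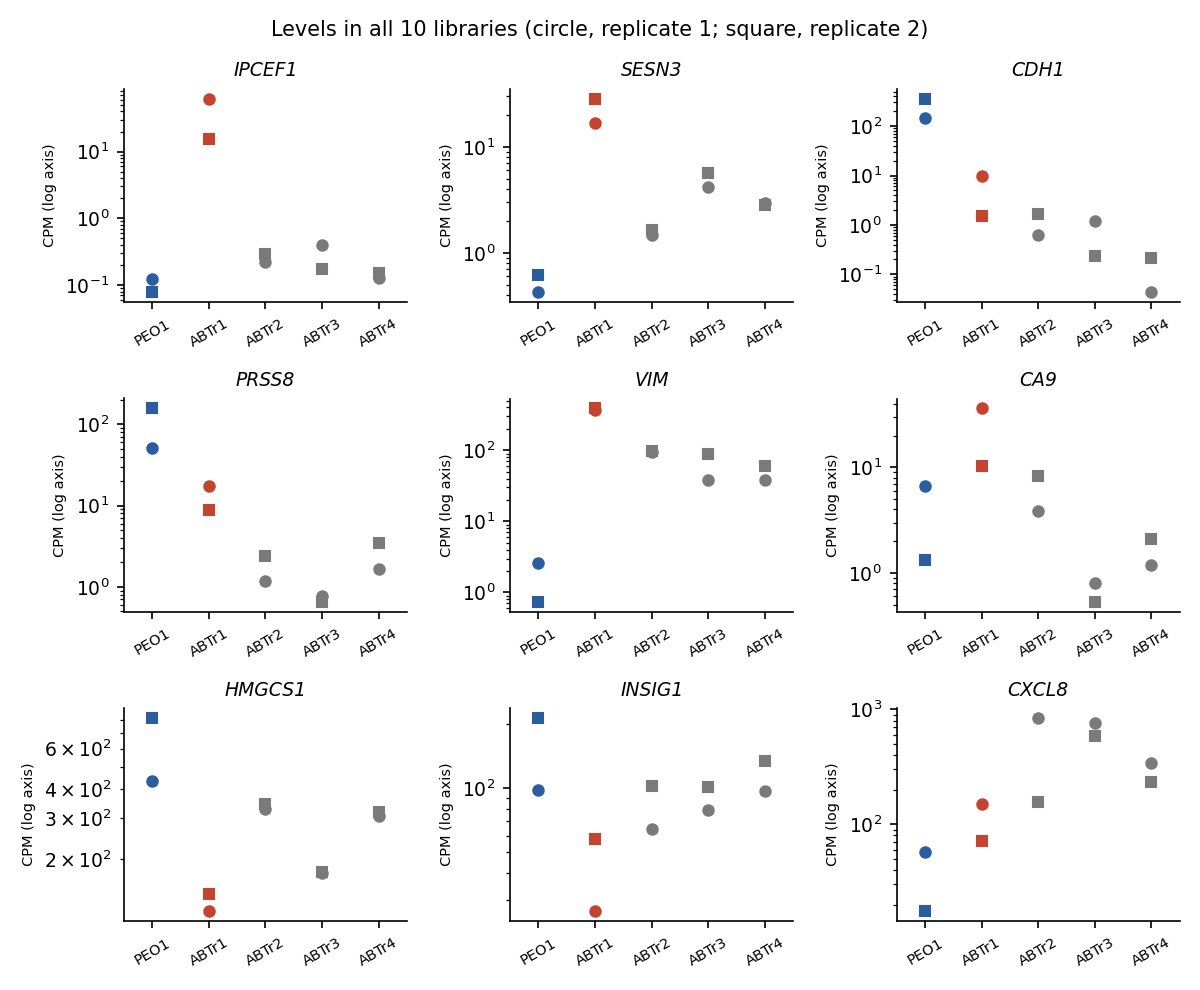
CPM on log axes of 9 genes in all 10 libraries, with PEO1 in blue, ABTr1 in red and the other derivatives in grey, circles for replicate 1 and squares for replicate 2. IPCEF1 and SESN3 are higher in both ABTr1 libraries than in any other library, VIM likewise, and HMGCS1 and INSIG1 are lowest in ABTr1.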

How the data were processed

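Polyadenylated RNA of 10 libraries, 2 for each of PEO1, ABTr1, ABTr2, ABTr3 and ABTr4, was measured with an unstranded kit. The deposited values are raw read counts per gene, which the authors made with TopHat2 2.0.14 on hg19 and featureCounts 1.4.6 of Subread, per the submitters' processing notes. Strand, pair and multi-mapping settings are not given in the sources used here. In every library more genes had 2 counts than 1.

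The counts were tested with edgeR 4.0.16 (R 4.3.3): TMM factors, the filterByExpr filter, the quasi-likelihood test with a mean per group over all 10 libraries, Benjamini-Hochberg adjustment over 16490 genes and a threshold of 0.05. The SE of a log2 fold change was derived from the F statistic. Every adjusted p is from this test. Library totals ranged from 20640602 to 55488566, and edgeR estimated a biological coefficient of variation of 0.368, or 0.234 once the replicate number entered as a block. Same-numbered libraries deviated together in all 10 pairs of groups (correlation of deviations from the group means 0.28 to 0.731, and 0.333 for ABTr1 with PEO1). The numbers were therefore treated as pairing the samples, though what libraries of the same number share is not stated. The blocked value is given where it changes a call. The series' design text speaks of 15 samples from 3 separate experiments, of which 10 are analysed here, and which experiment gave each library is not stated. Whether the 2 libraries of a group came from separate cultures is not stated in the labels, and p-values then reflect a spread that may be technical.

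Named were 10 fixed genes of repair and efflux, the 15 largest called rises and falls with at least 5 CPM and the same direction in both pairs, up to 4 called members of each list and 2 more called with the block only, the 10 largest rises and falls called with the block only, and the 5 largest in each direction against the other derivatives. The 33 lists, the rules and the members were chosen with earlier results of these data known, and 660 of their 693 entries were tested. Alternatives were DESeq2 1.42.0, limma-voom (limma 3.58.1), other scaling factors, no filter, the 4 libraries alone and each library left out. Of the rows, 28 had a date in place of a symbol and were not named. Figures were drawn with matplotlib 3.10.9 in Python 3.11.15. A few genes that the rules name are not reported here.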

Additional observations from a re-analysis of the deposited data

Results flagged for a closer look

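IPCEF1 was higher in ABTr1 than in the mean of ABTr2, ABTr3 and ABTr4 by 7.46 on the log2 scale (SE 0.50, edgeR quasi-likelihood adjusted p = 0.0031), by the test of the difference itself. The log2 difference with the replicate block was 7.36, and both ABTr1 libraries were above all 6 libraries of the other derivatives. SESN3 was higher by 3.01 (SE 0.28, edgeR quasi-likelihood adjusted p = 0.019), with 2.96 with the replicate block and again with both ABTr1 libraries above the other 6. Each group holds 2 libraries, and no cause was tested.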

How the results depend on the processing

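For ABTr1 against PEO1, 1611 genes were called (903 higher, 708 lower). The replicate block gave 4956 (2562 and 2394), DESeq2 3175 (1743 and 1432), the 4 libraries alone 699 (406 and 293), and those with the replicate block 3191 (1678 and 1513). Other scaling factors gave 1623, limma-voom 1595 and no filter 1776. With 1 library left out the count ranged from 221 to 1257, with 158 to 615 higher and 63 to 642 lower. The share of higher calls was 56.1%, and 71.5% and 73.5% without ABTr1 replicate 1 or 2. Against the other derivatives 2 genes were called, all higher; the replicate block gave 489 (375 higher, 114 lower), DESeq2 184 (126 and 58) and no filter 6 (6 higher), and 1 was called without either ABTr1 library. Genes that were not called turned direction with a library left out: BRCA1 ranged from -1.41 to 0.01, PARP1 from -0.05 to 1.01 and GBP2 from -0.52 to 3.87 in log2 fold change. The cause was not tested. With 2 libraries a group, genes at a few reads have wide counting intervals.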
